A study of Rattus norvegicus with 12 samples.

Results

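The rows described here are the long noncoding RNA (lncRNA) transcripts that carry the name of a ribosomal protein gene in rat lumbosacral spinal cord at embryonic day 17. They were chosen by name alone: a row was taken when a part of its name began with Rpl, Rps, Mrpl or Mrps and a digit, with the Rps6k kinases left out. This gave 114 of the 22701 transcript rows of the lncRNA table. By name, 68 of them fell to 47 cytosolic ribosomal protein genes and 46 to 28 mitochondrial ones. The RefSeq gene annotation lists Mrps36 as Kgd4, and whether each gene encodes a protein of the ribosome was not checked. A name links a row to a gene and does not make it the coding messenger RNA, and the messenger RNAs themselves were not analysed here. No source used here gives the strand setting, and reads of such a row and of the coding gene it lies in or opposite cannot be told apart. Ribosomal protein genes also have many processed copies in mammalian genomes, which can share reads with them.

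The cord came from Wistar fetuses in both groups. The normal group had 3 libraries, and the other group had 3 libraries from fetuses with anorectal malformations (ARM) induced with ETU, the teratogen ethylenethiourea. The labels name no group given ETU without a malformation, so exposure and malformation cannot be told apart. They do not say how many litters or fetuses each library came from, and the p-values therefore reflect only how these libraries varied, which may be technical. Total counts over the table ran from 3017868 to 4549756 in the normal libraries and from 3299241 to 3795224 in the ARM libraries.

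Cytosolic ribosomes translate nuclear messages and consist of a large subunit (Rpl proteins) and a small subunit (Rps proteins), while mitochondrial ribosomes (Mrpl and Mrps proteins) translate the few messages of the mitochondrial genome. In vertebrates the messages of cytosolic ribosomal proteins begin with a run of pyrimidines, the terminal oligopyrimidine tract, through which mTORC1 and the protein LARP1 control their translation, and those of mitochondrial ribosomal proteins mostly lack it. Many cytosolic ribosomal protein genes also carry small nucleolar RNAs (snoRNAs), guides for the modification of ribosomal RNA, in their introns. Growing neurons and dividing progenitors of the fetal cord need both kinds of ribosome.

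RefSeq gave a gene start for 37 of the 47 cytosolic genes and 18 of the 28 mitochondrial genes (build GRCr8). The 30 bases from 20 before to 10 from the annotated start are shown 5′ to 3′ for 7 cytosolic genes and 3 mitochondrial genes. These are a selection of the genes described below. The longest unbroken run of C and T is in capitals, so that the runs can be compared between genes. At Rpl21, Rps16, Mrpl17, Mrps18c and Mrpl51 the marked run lies wholly before the annotated start and so is not in the annotated message. At the other 5 genes it reaches the start or crosses it. Where runs tie, the earlier is marked, and at Mrpl51 an equally long run (tcc) lies after the start.
Rpl21: CCCTCTTCCTTTCCgccggggcagccatct
Rpl29: acagcgggCCTTTCTCTTTCTCTTCCggtc
Rps24: ggcagtgagcggTCCTCTTTTCCTCCTTTa
Rps2: gCCTCCCTCTTCTTTTTCTTCgggaaaaca
Rps10: gctgcgccgcgcacgCCCCTTCCTTTCCag
Rpl27a: cctcgcgagacttggtgggCTCCTCCCTCT
Rps16: cagaCCCTggaaaatcggtcggggtggccc
Mrpl17: actgcgcatgcgTCCTCTggaaagtgactc
Mrps18c: ctgtcgggggcgCTTagggaaacggaaagg
Mrpl51: gtcaggcgtcgcgCCCgcagagtccgcaac
The windows lie at chr12:13386144-13386173 on the minus strand for Rpl21, chr8:115947623-115947652 on the plus strand for Rpl29 and chr16:96497-96526 on the plus strand for Rps24. Those of Rps2 and Rps10 lie at chr10:14251828-14251857 (plus) and chr20:5700735-5700764 (minus), and those of Rpl27a and Rps16 at chr1:172974553-172974582 and chr1:92770638-92770667 (both plus). The mitochondrial ones lie at chr1:169575690-169575719 (minus) for Mrpl17, chr14:9122897-9122926 (minus) for Mrps18c and chr4:159677968-159677997 (plus) for Mrpl51.

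The run was 20 bases long at Rps2, 18 at Rpl29 and 17 at Rps24, and 3 at both Mrps18c and Mrpl51. Its median length was 11 bases over the 37 cytosolic genes, 4.5 over the 18 mitochondrial genes and 4 over all 33469 RefSeq promoters. A run of 8 or more bases was present at 26 of the 37 cytosolic genes (70.3%), 4 of the 18 mitochondrial genes (22.2%) and 12.01% of all promoters. Not every cytosolic gene had one: the longest run was 4 bases at Rps16 and Rpl22l1, 3 at Rpl41 and 7 at Rpl18. The mitochondrial genes with such a run included mrpl9, at 10 bases, and Mrps11, at 8. The motif CTCTTTC, searched on the transcript strand in the same 30 bases, was in 7 cytosolic windows (18.9%), 0 of the 18 mitochondrial windows and 0.397% of all windows. CTTCCGG, the core bound by ETS factors, was searched on both strands of the 300 bases from 250 before to 50 after the start. It was in 35.1% of the cytosolic, 38.9% of the mitochondrial and 8.75% of all promoters, and TATAAA, searched likewise, in 10.8%, 22.2% and 14.2%. None of the 3 motifs contains another, and a match is a description of letters only.

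**Figure D1:**
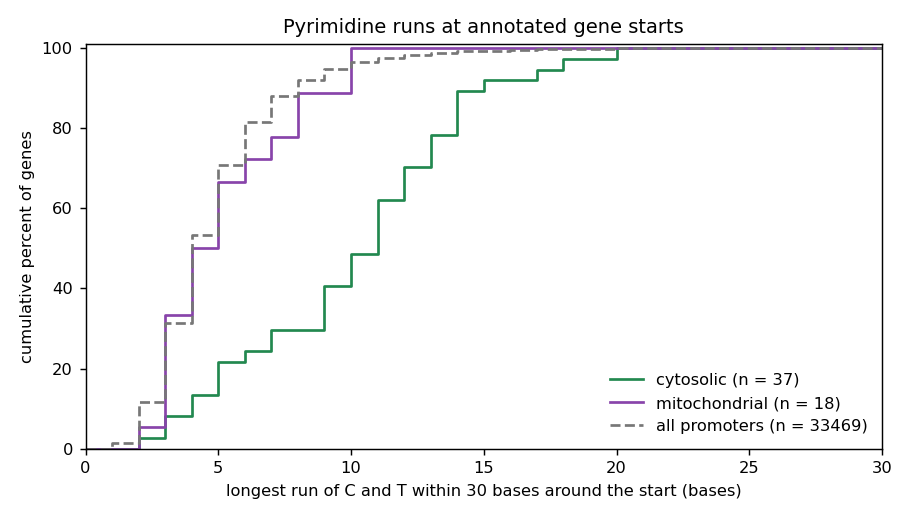
Cumulative percent of genes (vertical axis) by the length in bases of the longest run of C and T in the 30 bases around the annotated start (horizontal axis), for 37 cytosolic genes, 18 mitochondrial genes and all 33469 RefSeq promoters. The cytosolic curve lies to the right, with a median of 11 bases against 4.5 and 4.

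The rows were short, with a median length of 643 bases (from 239 to 2623) against 670 over the whole table, and 29 of the 114 were unspliced (25.4%, against 41.7% of all rows). Of the 75 genes 46 had 1 row, 21 had 2, 6 had 3 and 2 had 4. In 23 places rows of the set shared a span with each other, which involved 53 rows. The level per length, in FPKM as the authors deposited it (fragments per transcript length and library total), had a median of 4.49 over the 65 tested cytosolic rows, 1.91 over the 25 tested mitochondrial rows and 2.97 over all tested rows. Rows counted as tested when they passed a filter on low counts, which 90 of the 114 did. The 24 others had at most 20 counts in any library, and 21 of them were mitochondrial.

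**Figure D2:**
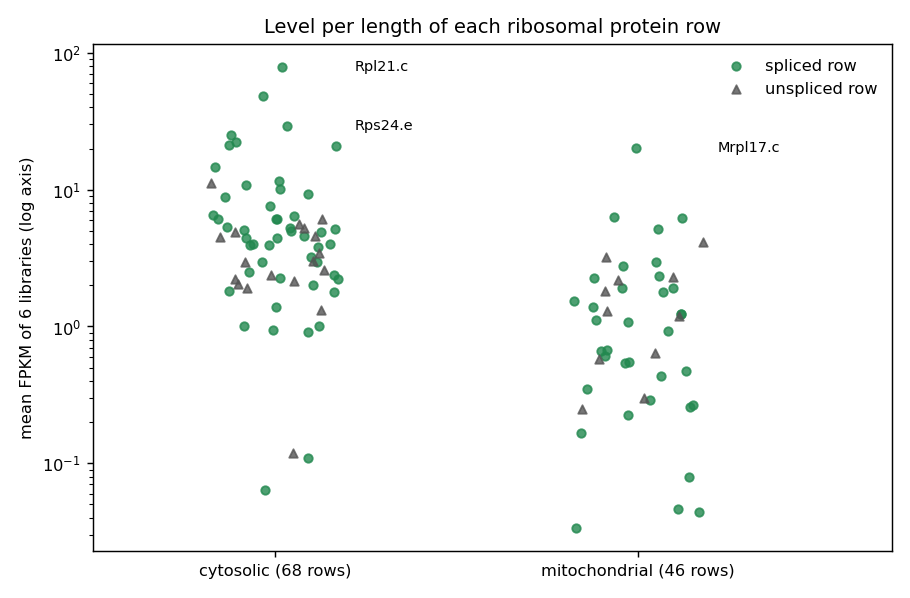
Mean FPKM over the 6 libraries of each of the 114 rows (log axis), with cytosolic rows on the left and mitochondrial rows on the right; round points are spliced rows and triangles unspliced rows, with sideways scatter for legibility only. Rpl21.c stood highest at 78.9 FPKM and the highest mitochondrial row, Mrpl17.c, at 20.1 FPKM.

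Among rows named after proteins of the large cytosolic subunit, Rpl21.c was the most abundant. It lay at chr12:9996610-10000152 as deposited, 1017 bases long and spliced, and had 76.1 ± 5.82 FPKM in normal cord and 81.6 ± 5.22 FPKM in ARM cord (mean ± SD, n = 3 and 3). In CPM, the count over a scaled library size, which serve below for comparing the libraries of a row, it had 454, 502 and 557 in the normal libraries, in order of replicate, and 555, 543 and 531 in the ARM libraries. The groups overlapped, and the log2 fold change was 0.11 (95% interval -0.13 to 0.35). Rpl41.1.b, at the gene of the very short protein Rpl41, had 25.5 ± 3.19 and 25.1 ± 2.23 FPKM, and Rpl29.b 20.5 ± 10.5 and 23.8 ± 8.33 FPKM. Rpl29.b was uneven within both groups, with 150, 108 and 48.7 CPM in normal and 152, 152 and 65.5 CPM in ARM libraries. Rpl41.1.c and Rpl30.c, the latter at the gene of a protein that in yeast controls splicing of its own message, had means of 21.0 and 10.9 FPKM. Rpl22.c, at the gene of an RNA-binding protein of the large subunit, hardly varied, with 135, 122 and 129 CPM in normal and 130, 119 and 134 CPM in ARM libraries.

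Of the small-subunit rows Rps24.e was highest, with 27.3 ± 1.67 FPKM in normal and 30.7 ± 2.36 FPKM in ARM cord. RPS24 is among the genes mutated in Diamond-Blackfan anaemia in humans. Its libraries held 130, 145 and 150 CPM in normal and 168, 154 and 158 CPM in ARM cord. All 3 ARM values lay above all 3 normal values, but the difference was small, a log2 fold change of 0.17 (95% interval -0.09 to 0.43, adjusted p = 0.9997, edgeR quasi-likelihood test). Rps18.a and Rps15a.1.c had mean levels of 7.61 and 14.7 FPKM and each varied little, from 79.7 to 96.8 CPM and from 66.4 to 91.5 CPM over the 6 libraries. In order of FPKM, Rpl21.c stood clear of Rps24.e, at 78.9 and 29.0 FPKM, while Rpl29.b and Rpl41.1.c, at 22.1 and 21.0 FPKM, did not differ beyond their spread.

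Mitochondrial rows were led by Mrpl17.c, at the gene of a large-subunit protein, with 16.3 ± 12.9 FPKM in normal and 24.0 ± 2.09 FPKM in ARM cord. The wide normal spread came from replicate 1, described below. Mrps11.b and Mrpl51.b followed at 6.29 and 6.16 FPKM, which did not differ beyond their spread, and then Mrps31.d at 5.15 FPKM. Mrpl51.b had 31.7, 30.6 and 30.1 CPM in normal and 33.5, 32.9 and 20.7 CPM in ARM libraries, so that ARM replicate 3 alone was low. Mrps11.b, at a small-subunit gene, ran from 25.2 to 30.1 CPM in normal and from 26.0 to 31.3 CPM in ARM libraries. Mrpl52.d ran from 33.4 to 39.6 CPM over all 6. Mrps30.d, an unspliced row of 1356 bases, had 30.4, 29.5 and 32.5 CPM in normal and 31.6, 23.2 and 23.8 CPM in ARM libraries. At the low end, Mrpl47.d had 0 counts in all 3 normal libraries and 4 counts in ARM replicate 2 alone, at the limit of what these depths detect, since 3 counts correspond to 0.664 to 1.01 CPM depending on the library. The mitochondrial genes with most rows were Mrpl52 and Mrps27, with 4 each, and Mrpl48, Mrpl35 and Mrps31, with 3 each, as many as Rpl18, Rpl21 and Rpl41 had. Their tested rows other than Mrpl52.d ran from 1.69 CPM in Mrps27.e to 22.3 CPM in Mrps31.d, with overlapping groups in each. Of the rest Mrpl48.c, Mrpl52.b, Mrps27.c, Mrps27.g and all 3 Mrpl35 rows were too low to test.

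**Figure D3:**
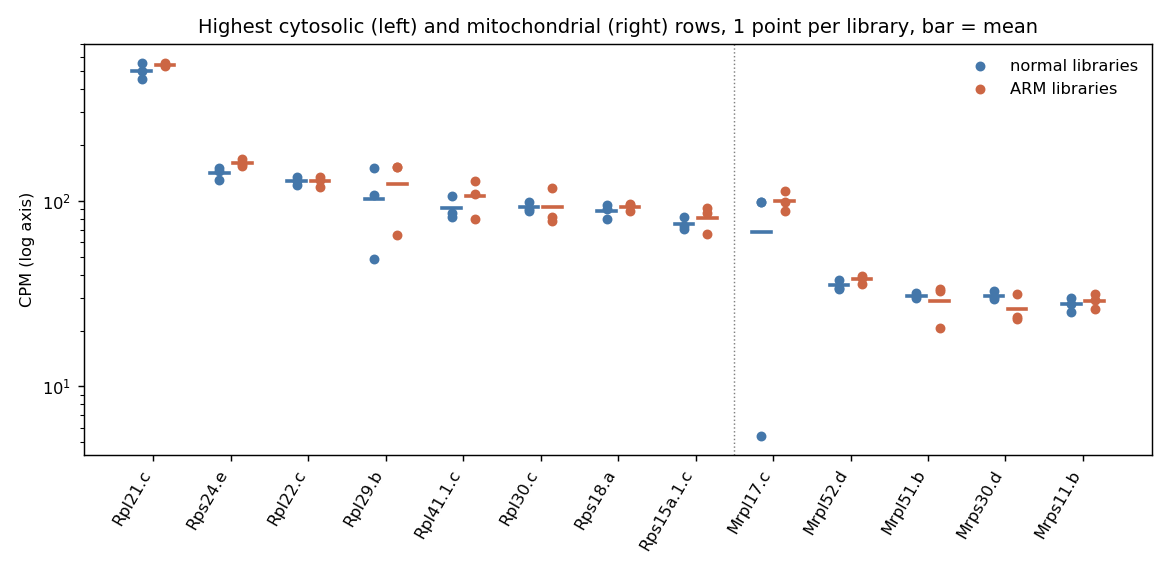
CPM (log axis) of 8 of the 10 cytosolic rows and the 5 mitochondrial rows with the highest mean CPM, with each library as a point (normal left, ARM right) and a bar at the group mean. In most rows the groups lie on top of each other, as in Rpl22.c; the low point of Mrpl17.c is normal replicate 1 at 5.40 CPM.

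The comparison of ARM with normal cord asked whether any of these rows differed with the malformation. None of the 90 tested rows passed an adjusted p of 0.05 in edgeR's quasi-likelihood test. None passed in DESeq2 either, which gave no p-value for Rps2.e. Of all 13584 tested lncRNA rows, 7 passed in edgeR (0.0515%), so a count of 0 among 90 is near the background. At an unadjusted p under 0.05 stood 2 of the 90, Mrps18c.b among them, where 407 of all tested rows did (3.00%). Cytosolic rows were higher in 31 cases and lower in 34, with a median log2 fold change of -0.0038, and mitochondrial rows were higher in 17 and lower in 8, with a median of 0.09, both without regard to the test. Over all tested rows the median was 0.0036 and 50.7% were higher. Without ARM replicate 3 the cytosolic median was 0.11. Without normal replicate 1 a fit that called 18 of 14298 rows (0.126%) called 1 row of the set.

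Most differences were small and their intervals moderate. In 80 of the 90 rows (88.9%) the log2 fold change was under 0.5 in size, which is also the share over all tested rows, and in 3 rows (3.33%, against 2.71% of all) it was 1 or more in size. The 95% interval lay within a log2 change of 1 in either direction for 60 of the 90 rows (66.7%, against 70.9% of all), so for the other rows a 2-fold difference was not outside what the data allow. The median standard error was 0.24 for these rows and for all tested rows.

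**Figure D4:**
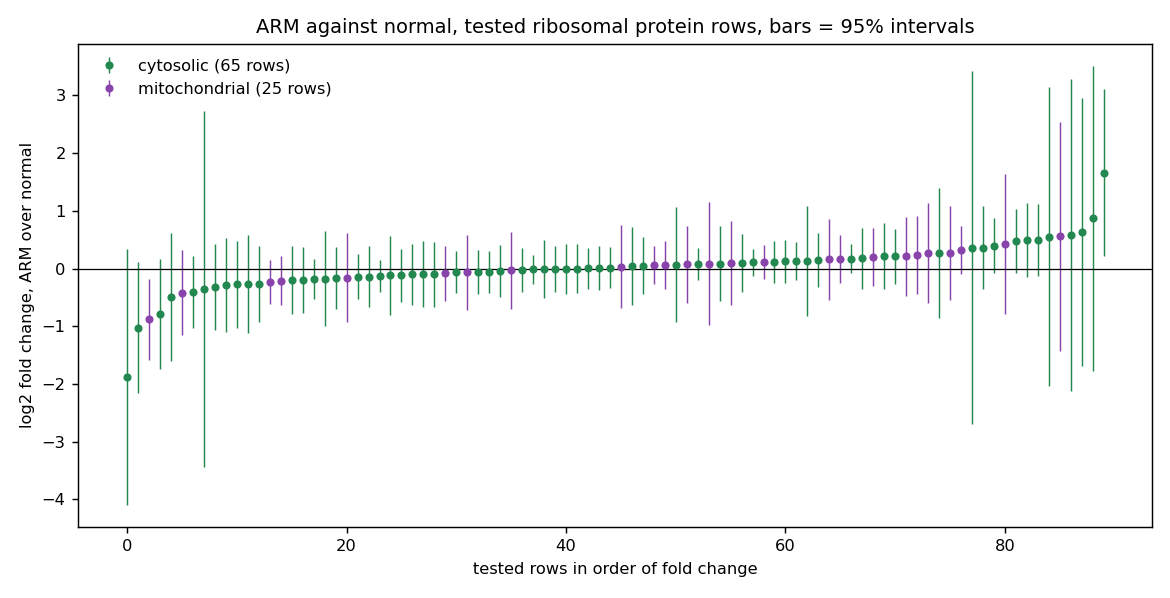
Log2 fold change (ARM over normal) of the 65 cytosolic and 25 mitochondrial tested rows in increasing order, with 95% intervals as bars. Most points lie close to 0, and the widest bars belong to rows with a library far from the others, such as Rps16.c.

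Mrps18c.b, at the gene of a mitochondrial small-subunit protein, had an unadjusted p under 0.05 and the lowest fold change of the mitochondrial rows. It is spliced, 395 bases long, at chr14:10441016-10446878 as deposited. It had 4.73, 7.21 and 5.75 CPM in normal and 2.41, 3.23 and 4.07 CPM in ARM libraries, which rest on 14, 32 and 26 counts and on 9, 12 and 13 counts. All ARM values lay below all normal values. The log2 fold change was -0.88 (SE 0.29, 95% interval -1.58 to -0.18, unadjusted p = 0.0212, adjusted p = 0.9997, edgeR). Its neighbour Mrps18c.c, which shares its span and was too low to test, had 2.76 ± 0.364 CPM in normal and 2.70 ± 1.20 CPM in ARM cord. The 2 rows summed had a log2 fold change of -0.56 (SE 0.29, unadjusted p = 0.0946, edgeR).

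In 9 of the 90 tested rows the CPM of the groups did not overlap, against 7.78% of all tested rows. Rps24.e and Mrps18c.b are described above, and Rpl21.e and Rpl18.g below. Rpl22l1.c, at the gene of the Rpl22 paralog, had 10.5, 7.21 and 10.4 CPM in normal and 10.7, 14.8 and 13.5 CPM in ARM libraries. Rpl27a.b had 11.5, 10.6 and 9.95 CPM in normal and 16.9, 13.5 and 11.6 CPM in ARM libraries. In both, the lowest ARM library lay just above the highest normal library. Summed with Rpl22l1.b, which shares its span, Rpl22l1.c had 26.0, 17.1 and 25.7 CPM in normal and 28.4, 29.1 and 23.2 CPM in ARM libraries. The groups of that sum overlapped, with a log2 fold change of 0.24 (unadjusted p = 0.277, edgeR). Rps23.b, at the gene of a protein of the decoding centre, had 3.04, 4.5 and 5.31 CPM in normal and 5.36, 6.46 and 6.58 CPM in ARM libraries. The mitochondrial mrpl9.d had 16.2, 17.6 and 13.5 CPM in normal and 22.5, 18.3 and 18.2 CPM in ARM libraries. The log2 fold changes of Rpl22l1.c, Rpl27a.b, Rps23.b and mrpl9.d lay between 0.32 and 0.49, and none had an unadjusted p under 0.05. Rps29.a, also among the rows with the smallest p in the higher direction, had 7.77, 7.43 and 10.4 CPM in normal and 11, 15.6 and 9.40 CPM in ARM libraries, which overlap. Rpl29.d had 6.42, 2.48 and 5.53 CPM in normal and 2.68, 2.96 and 2.51 CPM in ARM libraries, which overlap as well. In the lower direction Mrps30.d, Rpl29.d, Rps2.e and Rpl18.g followed Mrps18c.b, with p of 0.197, 0.0903, 0.0843 and 0.0710 before adjustment (edgeR). Mrps30.d alone had a log2 fold change of -0.23. Summed with the overlapping Mrps30.e it had -0.07 (unadjusted p = 0.658, edgeR).

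Summed levels were close. The 68 cytosolic rows together had 2733, 2679 and 2909 CPM in normal and 3047, 3056 and 2527 CPM in ARM libraries, or 2773 ± 120 and 2877 ± 303. The 46 mitochondrial rows had 339, 435 and 417 CPM in normal and 440, 455 and 417 CPM in ARM libraries, or 397 ± 51.2 and 437 ± 18.9. In both sums the difference was smaller than the spread of at least 1 group, with a log2 ratio of 0.05 and 0.14. With each library left out in turn the ratio ran from 0.0053 to 0.14 for the cytosolic sum, lowest without ARM replicate 1 and highest without ARM replicate 3. For the mitochondrial sum it ran from 0.03 to 0.21, lowest without normal replicate 1 and highest without normal replicate 2. Within that sum the single row Mrpl17.c had 5.40 CPM in normal replicate 1, against 98.9 and 98.7 CPM in normal replicates 2 and 3. In the ARM libraries Mrpl17.c had 99.0, 114 and 88.1 CPM, so the lower normal mean of the sum rests largely on 1 row in 1 library. ARM replicate 3 had the lowest cytosolic sum, and the same library had Hbb.d, the row at a beta-globin gene, at 212 CPM, against 1.58 to 4.29 CPM in the other 5. The part of blood RNA in these values was not tested. On the CPM scale of the whole library, coding reads included, whose total the deposited FPKM imply, the cytosolic rows had 426 ± 6.62 in normal and 438 ± 13.4 in ARM cord, and ARM replicate 3 had 424, beside 419 in normal replicate 2.

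Individual rows could be nearly absent from a single library although the others agreed closely. Among rows with a median of at least 20 counts, 10 of 76 (13.2%) had a library more than 5-fold from the median of the 6, against 4.56% of all such rows in the table; the limits of 20 and 5 were chosen after the values were seen. These were 9 of the 59 cytosolic and 1 of the 17 mitochondrial rows at that depth. Of the 114 rows of the set, 57 shared a span with another row of the table, against 7230 of all 22701 rows. Whether this bears on the share of such rows was not tested. Rps10.b, an unspliced row at the gene of a small-subunit protein near the messenger RNA entry site, had 1 count in normal replicate 1 and 325, 346, 296, 261 and 229 counts in the other 5 libraries. Mrpl17.c had 16 counts in normal replicate 1 and 281 to 446 in the others. Rps2.e went the other way, with 413 counts in normal replicate 1 and 49 to 68 elsewhere. All 3 were the only rows of their gene in the set, and normal replicate 1 stood apart in each. Over all rows of the table at that depth it was not unusual. There 130 rows were more than 5-fold below the median in normal replicate 1, against 88 in normal replicate 3 and 145 in ARM replicate 3. A low row outside the set overlapped Rps2.e, and their sum still ranged 10.7-fold. For Rps2.e normal replicate 1 set the direction: the log2 fold change was -1.88 (SE 0.93) with it and 0.10 without it.

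In genes with several rows the loss could be set beside the overlapping rows. In normal replicate 2, Rpl21.d had 2 counts and Rpl21.e 0, where the other libraries had 103 to 157 and 105 to 191 counts. Rpl21.c then held 99.9% of the counts of the gene, against 85.8% to 88.6% in the other libraries. The sum of the 3 overlapping Rpl21 rows, most of it Rpl21.c, ran from 502 CPM in normal replicate 2 to 646 CPM in ARM replicate 1. The groups of Rpl21.e did not overlap, with 35.5, 0 and 42.2 CPM in normal and 49.4, 49.6 and 42.3 CPM in ARM libraries. Rpl18.g, a spliced row, had 42.9, 49.5 and 45.1 CPM in normal and 7.51, 34.7 and 25.4 CPM in ARM libraries, lowest in ARM replicate 1. The unspliced Rpl18.c over the same span had 49.1 ± 3.23 CPM in normal and 53.6 ± 8.97 CPM in ARM cord. The share of Rpl18.g in the counts of Rpl18 was 45.4%, 52.1% and 47.1% in normal and 10.9%, 38.2% and 36.8% in ARM libraries. Its log2 fold change was -1.03 (SE 0.48, unadjusted p = 0.0710, edgeR), and that of the summed Rpl18 rows -0.32 (SE 0.14, unadjusted p = 0.0511, edgeR). All ARM shares lay below all normal shares.

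Other sums varied more. Rps16.c, at the gene of a small-subunit protein whose tail reaches the transfer RNA, had 0 counts in normal replicate 1, 343 and 384 in the other normal libraries, and 39, 177 and 222 in the ARM libraries. The unspliced Rps16.b over it kept 116 to 157 counts, and the 2 rows summed ran from 41.5 to 118 CPM, a 2.84-fold range. Rpl27.c had 2 counts in normal replicate 1 and 5 in ARM replicate 3 against 91 to 135 in the others, and with the unspliced Rpl27.d the sum ran from 17.9 to 63.3 CPM, a 3.54-fold range. Rpl41.a had 0 counts in normal replicate 3 and in ARM replicate 2, in a group of overlapping rows whose sum ranged 1.44-fold. It held at most 7.76% of the counts of the Rpl41 rows in any library, so that sum could hardly show its loss. In Rps16.c, Rpl27.c and Rpl41.a the libraries more than 5-fold below the median were 1 normal and 1 ARM library each. For Rps16.c these were replicate 1 of both groups. Whether reads moved between rows in the authors' counting was not tested.

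**Figure D5:**
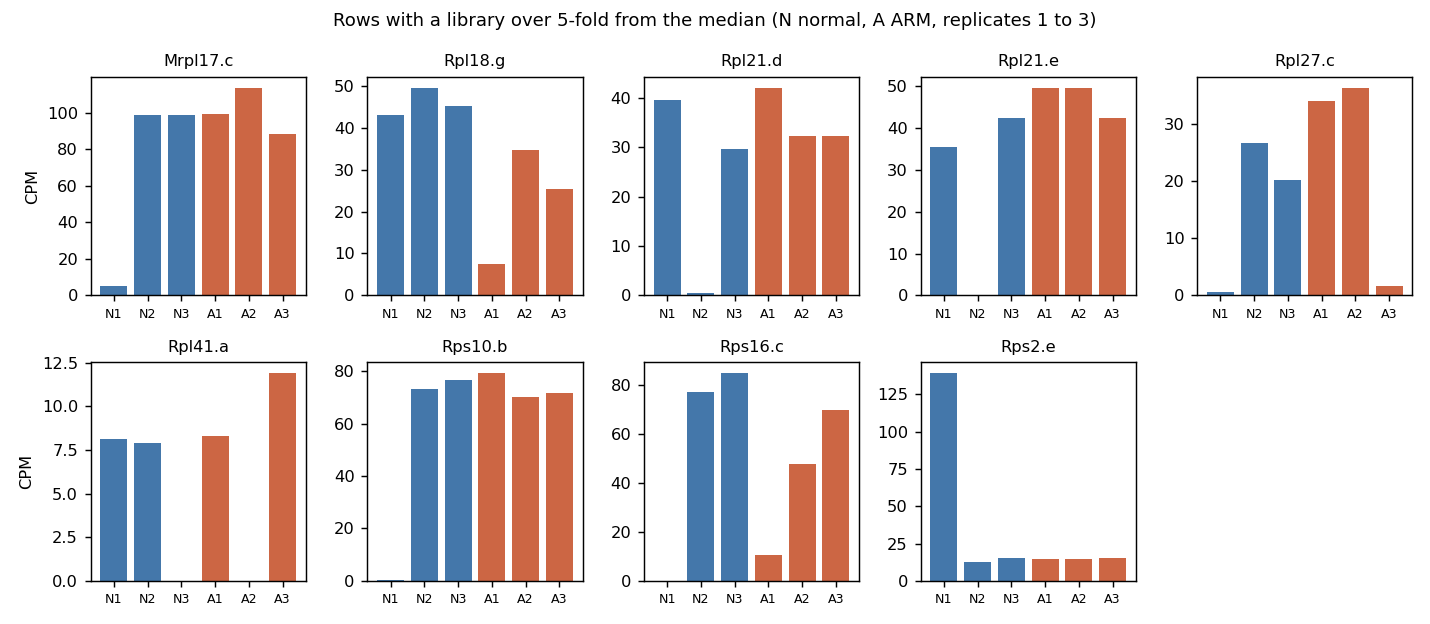
CPM of 9 of the 10 rows with a library more than 5-fold from the median of the 6, as bars from 0 for each library (N normal, A ARM, replicates 1 to 3), with a scale of its own in each panel. Normal replicate 1 is the library apart in Mrpl17.c, Rps10.b and Rps2.e, and normal replicate 2 in Rpl21.d and Rpl21.e.

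Part of the cytosolic genes shared a further feature that the choice by name did not use. By RefSeq positions in GRCr8, 40 snoRNA genes lay within 20 of the 47 cytosolic genes (42.6%), against 1 of 27 matched mitochondrial genes (3.70%) and 415 of 23148 coding genes (1.79%). Rpl21 holds Snora27 and Snord102, Rps2 holds Snora64, and Rpl13a holds Snord33 and Snord35a among others. Tested rows at the host genes had a median level of 5.20 FPKM and those at the other cytosolic genes 3.40 FPKM, given as a description. Rows named after Rpl35a, Rpl36al and Rps7 lay on a chromosome other than that of the RefSeq gene and are uncertain as to their gene. For the other genes only the chromosome was compared. Rpl35a and Rps7 are among the 37 cytosolic genes with a RefSeq start, and the windows of both hold CTCTTTC.

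Rows at genes around the ribosome were counted by lists, none of which held a row past the adjusted threshold. Of 12 tested rows at ribosome assembly genes 2 were higher and 10 lower in ARM cord, with a median log2 fold change of -0.14. The smallest p among them belonged to Rrp1.c, at a gene known from yeast for large-subunit ribosomal RNA processing. It had 26.3, 27.7 and 30.7 CPM in normal and 13.7, 14.0 and 17.5 CPM in ARM libraries, with no overlap. Its log2 fold change was -0.91 (SE 0.16, unadjusted p = 8.55e-04, adjusted p = 0.952, edgeR), so it did not pass. Of 46 rows at translation factor genes 25 were higher and 21 lower (median 0.07), and of 11 at genes of mitochondrial translation 5 and 6 (median -0.09). Of 3 rows at ribosomal protein genes that the naming rule leaves out 2 were higher and 1 lower (median 0.03). Among them Rpsa.e and Gnb2l1.d had 79.0 ± 8.21 and 25.2 ± 1.83 CPM in normal and 80.9 ± 13.4 and 24.7 ± 4.25 CPM in ARM cord. Of 11 rows at noncoding snoRNA hosts 5 were higher and 6 lower (median -0.13), and of 6 at genes of ribosomal stress and p53 4 and 2 (median 0.06). Proteasome rows were higher in 10 of 21 cases (median -0.04) and rows of oxidative phosphorylation in 22 of 37 (median 0.02), medians all on the log2 scale.

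The labelled tissue was checked on rows at marker genes. The 6 neuronal rows, Elavl3.b and Map2.e among them, summed to 319 to 334 CPM in normal and 279 to 339 CPM in ARM libraries. The 3 rows at caudal Hox genes summed to 117 to 161 CPM in normal and 145 to 155 CPM in ARM libraries. Most of that was Hoxd9.b, at 132 ± 22.8 and 146 ± 4.10 CPM, while Hoxc10.b was low, at 3.78 ± 1.32 and 2.69 ± 0.969 CPM. Rows at the sensory neuron gene Pou4f1 summed to 499 to 549 and 473 to 612 CPM. The 3 motor neuron rows and the muscle row were too low to test, at summed levels of no more than 4.29 and 0.627 CPM in any library. Cartilage and meningeal rows summed to 29.4 to 75.4 CPM in normal and 41.4 to 50.2 CPM in ARM libraries, endothelial and microglial rows to 26.7 to 38.5 and 36.0 to 43.4 CPM, and progenitor and glial rows to 14.5 to 24.5 and 13.1 to 26.3 CPM. The lone blood row, Hbb.d, is given above. In whole cord, fewer cells of a type and less RNA per cell cannot be told apart.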

How the data were processed

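Per the file headers, the authors deposited whole-number read counts and FPKM values per lncRNA transcript, used as they stood. The submitters' processing notes list TopHat2 2.0.9, Cufflinks 2.1.1, Cuffdiff, CASAVA 1.8 and mm10, a mouse genome build. The table holds 551 rows on chromosome 20, which the mouse lacks, and its coordinates are therefore printed as deposited, with the build, counting tool and strand setting not given in the sources used here. RefSeq windows are in GRCr8.

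The 6 libraries were fitted with edgeR 4.0.16 in R 4.3.3 (TMM, filterByExpr, quasi-likelihood test, Benjamini-Hochberg adjustment over 13584 tested rows, no covariate). The same code was also run on counts simulated from this fit with 200 rows changed, the outcome of which is not given here. DESeq2 1.42.0 was an alternative. CPM are relative to the TMM-scaled total of tested rows, levels are mean ± SD, and floors and intervals of counts cover counting error only. Library totals implied by FPKM were 18945573 to 30430869, of which lncRNA counts made up 14.6% to 17.4%.

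Named rows were those with the highest CPM or FPKM, the smallest p in each direction, the rows of 5 of the genes with most rows (ties broken by name), and rows absent from a group. Others, such as rows whose groups do not overlap or with a library far from the rest, were named after their values were seen. Members and lists were chosen with earlier results of these data known. Rows at some genes entered every fit and count and are not reported here. The miRNA table was not used.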

Additional observations from a re-analysis of the deposited data

How the results depend on the processing

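No ribosomal protein row passed the adjusted threshold under RLE size factors, FPKM-implied totals, DESeq2, no filter, the replicate block, or sums by gene or by overlapping span (the last chosen after seeing the data). Leaving out each library gave 0 to 1, the 1 without normal replicate 1. Of all lncRNA rows, 7 passed, 18 with DESeq2, 4 with overlapping rows summed, and 10 to 18 with a library left out. No pairing by replicate number was visible in the counts (same-number correlations -0.00047, 0.029 and -0.060; 1 of 6 libraries correlated best with its own number). The labels do not say whether libraries were paired. With the replicate block 2 of all lncRNA rows passed. The cytosolic median ran from -0.055 to 0.11 with a library left out, the highest without ARM replicate 3. Of 272 alternative values for 21 rows, 260 kept direction and side of the threshold. With a library left out, log2 fold changes changed sign in Rpl22.c (-0.047 to 0.035), Rpl29.b (-0.064 to 0.65), Rpl30.c (-0.21 to 0.11), Mrpl51.b (-0.20 to 0.11), Mrps11.b (-0.0083 to 0.12) and Rps2.e (-2.36 to 0.10); the cause was not tested. Rpl29.d turned to 0.24 in both kinds of sum, which add the larger Rpl29.b. DESeq2 gave no p-value for Rps2.e, and sums of levels have no DESeq2 or block value. Depth limits rows under about 20 counts.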
